A study of Rattus norvegicus with 23 samples.

Results

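Plac8 and 7 other genes known from monocytes were followed across the 4 groups of a neonatal rat experiment, namely Vcan, Fn1, Cd44, Lyz2, Hp, Csf3r and Anpep. They are 8 of the 20301 genes in the deposited table, and all 8 had a value in every library. Plac8 was selected on its measured values, being higher after LPS alone than in Sham, so that difference, and every other one that uses its Sham or LPS libraries, is a description here and was not tested. The remaining 7 are genes that monocytes express, chosen with earlier results of these data known, to see which were higher with LPS and which with HI.

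Wistar rats were operated at postnatal day 7, and microglia were isolated with CD11b/c magnetic beads 24 h later for RNA sequencing. Sham pups (6 samples) went through the operation without ligation or hypoxia and have no injection listed. LPS pups (5 samples) received 0.1 mg/kg lipopolysaccharide, a bacterial wall component, 4 h before the sham operation. NaCl/HI pups (6 samples) received 0.9% NaCl before hypoxia-ischemia (HI), which joined ligation of a carotid artery with 50 min at 8% oxygen. LPS/HI pups (6 samples) received LPS before the same insult. Each Sham or LPS sample was the entire brain of 1 pup, and each HI sample held the ipsilateral hemispheres of 2 pups. HI, the tissue taken and the pooling therefore cannot be told apart. In NaCl/HI against Sham the NaCl injection cannot be told apart from them either. Nor can LPS and the injection itself in LPS against Sham.

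Classical monocytes are blood cells that carry Ccr2 and Cd14, enter inflamed tissue and there become macrophages, whereas nonclassical monocytes patrol the vessel wall. They share CD11b with microglia, neutrophils and border-associated macrophages, so the beads do not part them from microglia. Several of the 8 genes, such as Lyz2, Fn1 and Csf3r, are also found in microglia or other macrophages. As these are bulk samples, a change in the number of such cells and a change in RNA per cell cannot be told apart.

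Values are log2 on the rlog scale, a transformation of counts that draws weakly expressed genes toward their mean, and they are not scaled by gene length. The depth of the libraries is unknown, since no counts were used. The authors also removed 3 surrogate variables. Around the 4 group means the values had 16 dimensions left rather than 19, so the spread within groups was lowered, and this can make p values too low. Of 14 homeostatic microglia markers 13 were measured, and their summed level lay between 17.79 and 18.1 in all 23 libraries. Library numbers 1 to 12 cover replicates 1 to 3 of each group and numbers 13 to 23 the rest, and differences are also given within these 2 series. A gene was called at a limma adjusted p under 0.05 (Benjamini-Hochberg over all 20301 genes).

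Promoter sequence is shown for 4 members: Plac8 and Csf3r, which were higher in LPS than in Sham, Cd44, which was higher in LPS/HI than in Sham, and Lyz2, which carries the single C/EBP match. The RefSeq table (GRCr8, another build than that of the files) held entries for 6 of the 8 members, all but Fn1 and Hp. Each sequence is the 250 bases before the gene's start, read 5′ to 3′ on the gene's strand. They lie at chr14:9356700-9356949 on the plus strand (Plac8), chr5:143582970-143583219 on the plus strand (Csf3r), chr3:109699425-109699674 on the minus strand (Cd44) and chr7:54798012-54798261 on the minus strand (Lyz2). Capitals mark the CCAAT box of Plac8 and the C/EBP match of Lyz2.
Plac8: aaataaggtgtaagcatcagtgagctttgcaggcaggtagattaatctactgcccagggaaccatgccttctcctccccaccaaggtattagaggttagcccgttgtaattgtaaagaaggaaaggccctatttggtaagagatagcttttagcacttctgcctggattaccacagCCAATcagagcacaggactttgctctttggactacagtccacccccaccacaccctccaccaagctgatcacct
Csf3r: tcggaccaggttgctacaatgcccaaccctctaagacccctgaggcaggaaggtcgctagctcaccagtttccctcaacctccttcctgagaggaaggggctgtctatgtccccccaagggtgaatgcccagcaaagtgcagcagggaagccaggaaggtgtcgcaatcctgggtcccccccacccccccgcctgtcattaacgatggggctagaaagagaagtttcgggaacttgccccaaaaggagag
Cd44: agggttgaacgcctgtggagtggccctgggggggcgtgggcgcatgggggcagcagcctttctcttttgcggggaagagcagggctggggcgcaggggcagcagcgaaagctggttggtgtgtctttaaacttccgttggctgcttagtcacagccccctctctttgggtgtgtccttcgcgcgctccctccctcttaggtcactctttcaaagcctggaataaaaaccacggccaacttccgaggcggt
Lyz2: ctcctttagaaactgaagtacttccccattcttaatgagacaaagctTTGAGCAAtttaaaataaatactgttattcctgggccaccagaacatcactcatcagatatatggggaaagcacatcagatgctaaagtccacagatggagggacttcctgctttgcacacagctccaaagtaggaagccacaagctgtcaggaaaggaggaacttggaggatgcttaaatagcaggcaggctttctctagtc

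Both strands of the full 300-base windows, which add 50 bases past the start, were searched. TTGCNNAA, the C/EBP motif, was found in Lyz2 at bases -203 to -196 on the opposite strand, and in 10.6% of all 33469 windows. CCAAT, searched after the sequences had been seen, was found in Plac8 at bases -74 to -70 and in 1 window of Vcan, against 37.5% of all windows. The NF-kB motif was found in 0 of the 6 members and in 4.18% of all windows. The STAT motif TTCNNNGAA (8.87% of windows), the PU.1 motif GAGGAAGT (2.42%) and the AP-1 motif TGANTCA (7.33%) were likewise found in 0 of 6.

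Plac8, which encodes a small cysteine-rich protein of myeloid and lymphoid cells, was highest after LPS alone. Its log2 values in the 5 LPS libraries were 11.78, 11.39, 11.21, 11.96 and 11.53. The 6 Sham libraries ranged from 10.24 to 10.81 with a median of 10.35, and NaCl/HI from 10.16 to 10.57 with a median of 10.27. LPS/HI libraries lay between, from 10.59 to 11.13 with a median of 10.80. Every LPS library thus lay above every library of the other groups, and every LPS/HI library above every NaCl/HI library. The LPS mean of 11.57 ± 0.30 (SD, n = 5) exceeded the Sham mean of 10.40 ± 0.21 (SD, n = 6) by 1.17, or 2.26-fold, the contrast on which Plac8 was picked.

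The HI groups offer the same question in samples that the choice did not use. Plac8 was higher in LPS/HI, 10.85 ± 0.22 (SD, n = 6), than in NaCl/HI, 10.31 ± 0.15 (SD, n = 6), by 0.54 on the log2 scale (standard error 0.12, 95% interval 0.28 to 0.80). All 6 LPS/HI libraries lay above the NaCl/HI mean, and the unadjusted p was 0.00216 by a two-sided exact Wilcoxon test, the smallest that 6 against 6 allow. Over all genes the difference missed the threshold (limma adjusted p = 0.0678). It was 0.61 in the first library series and 0.47 in the second, without overlap in either. Across all genes, 0.202% were called in this comparison and in 1.33% the groups did not overlap. Of the 8 members 0 were called by limma and 0 by the Wilcoxon test, 2 had an unadjusted limma p under 0.05 (Plac8 and Hp, against 10.6% of all genes), and 1, Plac8, did not overlap. The Wilcoxon test called 0 of all 20301 genes in every pair of groups but LPS against Sham and LPS/HI against Sham, so its counts of 0 in the other pairs say nothing about single genes or lists.

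The other comparisons of Plac8 share Sham or LPS libraries with the one it was picked on, so they are given as values. NaCl/HI differed from Sham by -0.09, with 2 of 6 libraries above the Sham mean and the groups overlapping. LPS/HI stood below LPS by 0.72 (fitted difference -0.72), without overlap, and LPS above NaCl/HI by 1.26. LPS/HI exceeded Sham by 0.45, in 6 of 6 libraries, although 1 Sham library, replicate 1, overlapped. The LPS difference was smaller with HI than without by 0.63 (-0.63 as the interaction).

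**Figure D1:**
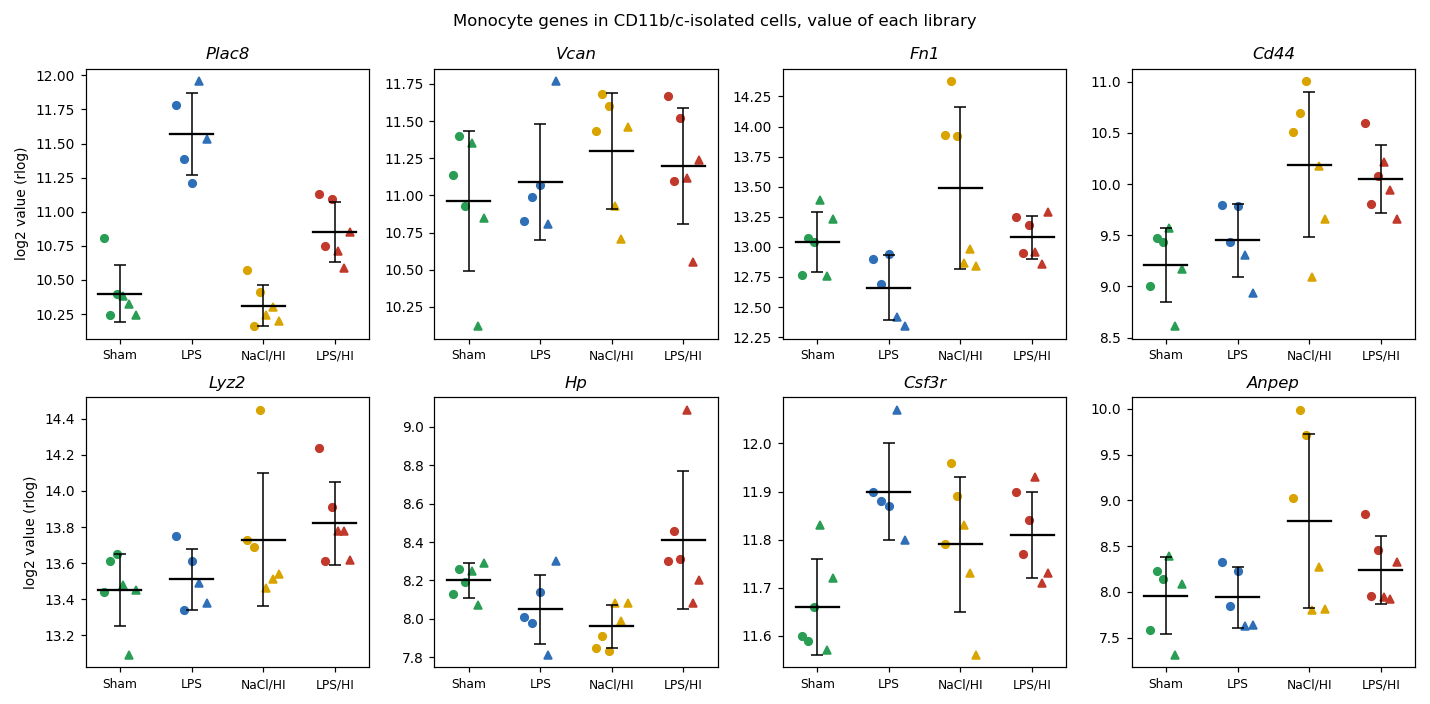
Log2 rlog value of each library for the 8 genes in the 4 groups, with the group mean and SD (bars). Circles are libraries 1 to 12 and triangles 13 to 23. The 5 LPS libraries of Plac8 (11.21 to 11.96) lie above all others, while for Cd44 all 6 LPS/HI libraries lie above the Sham libraries.

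Csf3r, the receptor for granulocyte colony-stimulating factor, was the other member higher with LPS alone, by a small amount. The LPS libraries read 11.90, 11.88, 11.87, 12.07 and 11.80, and the Sham libraries ranged from 11.57 to 11.83 around a median of 11.63. A single Sham library (replicate 4) lay above the lowest LPS library, and all others were below. The means of 11.90 ± 0.10 (SD, n = 5) and 11.66 ± 0.10 (SD, n = 6) differed by 0.24, or 1.18-fold (standard error 0.07, limma adjusted p = 0.0164). Without LPS replicate 4 the difference was 0.20 and the call was lost (limma adjusted p = 0.06). Within the library series the differences were 0.27 and 0.23.

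Of the 7 members other than Plac8, Csf3r was the 1 called in LPS against Sham, where 17.8% of all genes were called, so the members' share is near the background. The groups did not overlap for 0 of these 7, against 13.9% of all genes. In the HI groups Csf3r gave 11.81 ± 0.09 (SD, n = 6) with LPS and 11.79 ± 0.14 (SD, n = 6) with NaCl, a difference of 0.02 (95% interval -0.12 to 0.15, limma adjusted p = 0.95). That the LPS difference changed with HI was not shown either (interaction -0.23, limma adjusted p = 0.25). NaCl/HI stood 0.13 above Sham (limma adjusted p = 0.35) and LPS/HI 0.15 above Sham (limma adjusted p = 0.144).

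Cd44, the cell surface receptor for hyaluronan, was the member that differed most between NaCl/HI and Sham. In NaCl/HI its values were 10.51, 10.70, 11.01, 9.09, 10.18 and 9.66, and in LPS/HI they were 10.60, 9.81, 10.08, 10.22, 9.94 and 9.66. Sham libraries ranged from 8.61 to 9.57 with a median of 9.30, and the LPS libraries read 9.80, 9.43, 9.79, 9.31 and 8.94. All LPS/HI libraries were above all Sham libraries, while 1 NaCl/HI library, replicate 4, fell within the Sham range. LPS/HI, 10.05 ± 0.33 (SD, n = 6), exceeded Sham, 9.21 ± 0.36 (SD, n = 6), by 0.84, or 1.80-fold (standard error 0.26, limma adjusted p = 0.0442). The difference was 0.86 in the first library series and 0.83 in the second, with no overlap in either.

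The call for Cd44 lay close to the threshold. It was lost in 12 of 23 cases with 1 library left out, namely Sham replicates 1, 2, 5 and 6, LPS replicate 2, NaCl/HI replicates 1 and 5, and LPS/HI replicates 1 to 5, with limma adjusted p up to 0.107. NaCl/HI, 10.19 ± 0.71 (SD, n = 6), stood 0.98 above Sham, or 1.98-fold (standard error 0.26, 95% interval 0.45 to 1.52), and this did not pass over all genes (limma adjusted p = 0.134). Without NaCl/HI replicate 4 it was 1.2 and passed (limma adjusted p = 0.0111). LPS/HI stood 0.60 above LPS (95% interval 0.04 to 1.16, limma adjusted p = 0.279), in 6 of 6 libraries. The LPS differences of Cd44 were 0.24 in LPS against Sham (95% interval -0.32 to 0.81) and -0.14 in LPS/HI against NaCl/HI (95% interval -0.68 to 0.40). The former was 0.12 without Sham replicate 5 and 0.37 without LPS replicate 5, and the latter ran from -0.36 without NaCl/HI replicate 4 to 0.02 without NaCl/HI replicate 3.

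Counted over the 7 members other than Plac8, 0 were called in NaCl/HI against Sham by limma and 0 by the Wilcoxon test, with 2 at an unadjusted limma p under 0.05, Cd44 and Anpep, as were 14.8% of all genes. Across all genes 0.00985% were called, and in 1.01% the groups did not overlap, against 0 of the 7. In LPS/HI against Sham 1 of 7 was called, Cd44, which also was the 1 without overlap, where 8.77% of all genes were called and 6.37% did not overlap. LPS/HI against LPS gave 0 of 7 by limma and 0 by the Wilcoxon test, with 3 at an unadjusted limma p under 0.05 (Cd44, Lyz2 and Hp, against 15.5% of all genes), and 0 without overlap. The background there was 1.94% called and 4.17% without overlap.

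**Figure D2:**
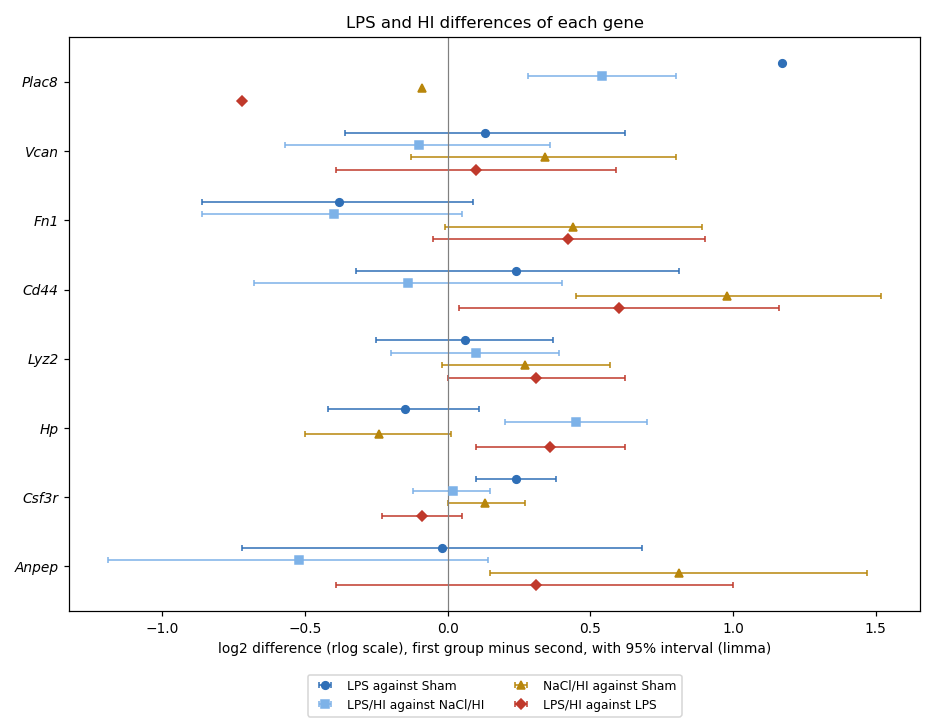
Log2 difference of each gene in 4 comparisons, with the 95% interval from limma. Differences of Plac8 that use the libraries it was picked on are drawn without an interval. The intervals of Plac8 and Hp in LPS/HI against NaCl/HI, of Cd44 and Anpep in NaCl/HI against Sham, of Csf3r in LPS against Sham and of Cd44, Lyz2 and Hp in LPS/HI against LPS lie to the right of 0.

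Fn1 and Anpep split within the NaCl/HI group. Fn1 encodes fibronectin, an extracellular matrix and plasma glycoprotein, and Anpep encodes aminopeptidase N (CD13) of the myeloid cell surface. In NaCl/HI replicates 1, 2 and 3 Fn1 read 13.93, 14.38 and 13.92, and in replicates 4, 5 and 6 it read 12.87, 12.98 and 12.84. Anpep read 9.03, 9.99 and 9.71 in the former and 7.80, 8.27 and 7.81 in the latter. So the first 3 NaCl/HI libraries lay above all other libraries of the study for both genes, and the last 3 lay within the Sham ranges of 12.76 to 13.39 (Fn1) and 7.31 to 8.39 (Anpep).

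Accordingly, the difference of NaCl/HI from Sham depended on the series. For Fn1 it was 0.44 over all samples (95% interval -0.01 to 0.89, limma adjusted p = 0.348), 1.12 in the first series and -0.23 in the second, and 0.27 without NaCl/HI replicate 2. For Anpep it was 0.81 (95% interval 0.15 to 1.47, limma adjusted p = 0.251), with 1.59 and 0.03. Cd44 gave 1.44 and 0.53, Vcan 0.41 and 0.26, Lyz2 0.39 and 0.16, Csf3r 0.26 and 0.00, and Hp -0.33 and -0.16. The Sham means moved far less between series, from 12.96 to 13.13 for Fn1 and from 7.99 to 7.93 for Anpep. The LPS means fell from 12.85 to 12.38 for Fn1 and from 8.13 to 7.64 for Anpep, without overlap between the series. The LPS/HI means fell from 13.13 to 13.04 for Fn1 and from 8.42 to 8.07 for Anpep.

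Other markers were looked up in the same 6 NaCl/HI libraries, as the log2 of the summed values of a list. The 34 other classical monocyte genes gave 15.79, 15.80 and 15.85 in replicates 1 to 3 and 15.42, 15.63 and 15.48 in replicates 4 to 6. Abundant genes weigh most in such a sum. In NaCl/HI Ahnak averaged 13.65 and Vim 13.19, but Ccr2 averaged 7.70 and Ly6c 5.96. Border-associated macrophage markers gave 15.57, 15.30 and 15.15 and then 15.78, 15.64 and 15.66, thus lower where Fn1 and Anpep were higher. Fibroblast and mural markers, also sources of Fn1, gave 13.76, 13.62 and 13.75 and then 13.52, 13.75 and 13.46, and homeostatic microglia markers stayed between 17.81 and 18.03. The part of these cells in the split was not tested.

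Fn1 was lower in LPS than in NaCl/HI by 0.83 (fitted difference -0.83, or 1.77-fold lower, standard error 0.23, limma adjusted p = 0.0261). The LPS libraries read 12.90, 12.69, 12.94, 12.42 and 12.34, so that 0 of 5 lay above the NaCl/HI mean of 13.49 ± 0.67 (SD, n = 6). The difference was -1.23 in the first series and -0.52 in the second, without overlap in each. It lost its call without LPS replicate 2, 4 or 5 or NaCl/HI replicate 1, 2 or 3 (limma adjusted p between 0.0544 and 0.0717). Anpep differed by -0.83 in the same comparison (95% interval -1.53 to -0.13) and was not called (limma adjusted p = 0.132), but passed with the library series as a term (-0.90, limma adjusted p = 0.0479). Cd44 in this comparison gave -0.74 (limma adjusted p = 0.0925), and -0.79 with the series as a term (limma adjusted p = 0.0314). Of the 7 members other than Plac8, 1 was called in LPS against NaCl/HI, Fn1, where 8.98% of all genes were. Of the 10 fibroblast and mural markers 4 were lower and 0 higher in this comparison. The median was -0.26, and 0 of the 10 had a positive difference. Their part in the values of Fn1 was not tested.

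Neither gene was called in LPS/HI against Sham. Fn1 gave 13.08 ± 0.18 (SD, n = 6) against 13.04 ± 0.25 (SD, n = 6), a difference of 0.04 (95% interval -0.41 to 0.49). Anpep gave 8.24 ± 0.37 (SD, n = 6) against 7.96 ± 0.42 (SD, n = 6), a difference of 0.29 (95% interval -0.38 to 0.95), which was 0.16 without LPS/HI replicate 1 or without Sham replicate 5. Against NaCl/HI, LPS/HI gave -0.40 for Fn1 (limma adjusted p = 0.54) and -0.52 for Anpep (limma adjusted p = 0.599), with -0.95 and -1.16 in the first series and 0.14 and 0.11 in the second. Without NaCl/HI replicate 2 they were -0.23 and -0.28, and without NaCl/HI replicate 3 Anpep gave -0.34. LPS against Sham gave -0.38 for Fn1 (limma adjusted p = 0.258) and -0.02 for Anpep (limma adjusted p = 0.973).

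**Figure D3:**
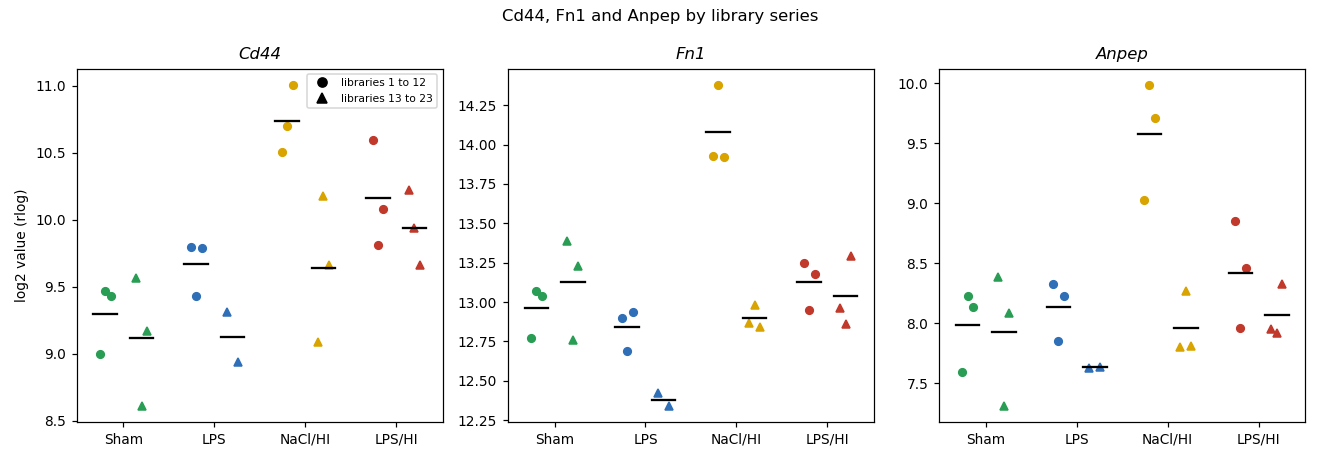
Log2 rlog values of Cd44, Fn1 and Anpep by group and library series (circles, libraries 1 to 12; triangles, 13 to 23; lines, means). The first 3 NaCl/HI libraries of Fn1 (13.92 to 14.38) and Anpep (9.03 to 9.99) lie above the last 3.

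Lyz2, the lysozyme of macrophages and monocytes, had higher means in both HI groups, without passing the test. Sham libraries ranged from 13.09 to 13.65 with a median of 13.46, and LPS libraries read 13.75, 13.34, 13.61, 13.49 and 13.38. NaCl/HI ranged from 13.46 to 14.45 with a median of 13.61, and LPS/HI from 13.61 to 14.24 with a median of 13.78. The groups overlapped throughout, with all 6 LPS/HI libraries above the Sham mean. LPS/HI stood 0.37 above Sham (standard error 0.14, limma adjusted p = 0.0999), and without NaCl/HI replicate 3, the highest library, this difference passed (limma adjusted p = 0.0324). NaCl/HI stood 0.27 above Sham (limma adjusted p = 0.37), and 0.13 without its replicate 3, and LPS/HI 0.31 above LPS (limma adjusted p = 0.321). LPS gave 0.06 against Sham (95% interval -0.25 to 0.37) and 0.10 in the HI groups (95% interval -0.20 to 0.39). The latter ran from 0.01 to 0.24 with 1 library left out.

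Vcan, which encodes the hyaluronan-binding proteoglycan versican, showed no called difference in any comparison. It ranged from 10.12 to 11.40 in Sham (median 11.03), from 10.81 to 11.77 in LPS (median 10.99), from 10.71 to 11.68 in NaCl/HI (median 11.44) and from 10.55 to 11.67 in LPS/HI (median 11.18). All 4 ranges overlap. The largest of its differences was 0.34 for NaCl/HI against Sham (95% interval -0.13 to 0.80, limma adjusted p = 0.493), which was 0.17 without Sham replicate 5. Oligodendrocyte precursors also make versican, and the 11 oligodendrocyte lineage markers had summed levels of 13.66 to 14.28 in Sham and 13.71 to 14.94 in NaCl/HI. The value of 14.94 came from replicate 6, and the next highest NaCl/HI library was replicate 2 at 14.17.

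Hp, which encodes the hemoglobin-binding protein haptoglobin, had another pattern, with its highest mean in LPS/HI and its lowest in NaCl/HI. The LPS/HI libraries read 8.30, 8.46, 8.31, 9.09, 8.08 and 8.20, and the NaCl/HI libraries 7.85, 7.91, 7.83, 8.08, 7.99 and 8.08. LPS libraries read 8.01, 7.98, 8.14, 7.81 and 8.30, and Sham libraries ranged from 8.07 to 8.29 with a median of 8.22. LPS/HI and NaCl/HI met at 8.08, and all 6 LPS/HI libraries lay above the NaCl/HI mean. The means of 8.41 ± 0.36 (SD, n = 6) and 7.96 ± 0.11 (SD, n = 6) differed by 0.45, or 1.37-fold (standard error 0.12, 95% interval 0.20 to 0.70), which missed the threshold over all genes (limma adjusted p = 0.116). It was 0.49 in the first library series and 0.41 in the second, where the groups overlapped and LPS/HI replicate 4 read 9.09. With 1 library left out the difference over all samples ranged from 0.31 to 0.52.

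Hp in LPS against Sham went the other way, -0.15 (95% interval -0.42 to 0.11), and was -0.09 without LPS replicate 4. The interaction of LPS with HI was 0.60 (standard error 0.18, limma adjusted p = 0.0971). Of the 7 members other than Plac8, 0 were called for the interaction and 2, Hp and Csf3r, had an unadjusted p under 0.05 (limma), where 1.08% of all genes were called and 15.1% had such a p. The difference of NaCl/HI from Sham was -0.24 on the log2 scale (limma adjusted p = 0.352), with 0 of 6 libraries above the Sham mean, and LPS/HI stood 0.36 above LPS (limma adjusted p = 0.149). Without LPS/HI replicate 4 the latter was 0.22.

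Neutrophils store haptoglobin in their granules, so neutrophil markers were read beside Hp. Of 22 markers 21 were measured, with Elane lowest at a mean of 0.33. Their summed log2 level was 12.78, 12.20, 12.65, 13.33, 11.78 and 11.75 in LPS/HI, against 11.11 to 12.30 in NaCl/HI, 11.25 to 11.83 in LPS and 11.18 to 11.87 in Sham. LPS/HI replicate 4 was highest for these markers and for Hp, and replicates 5 and 6 were lowest for both. Within NaCl/HI the order was not shared, since replicate 3 had the highest summed markers, 12.30, and the lowest Hp, 7.83, while replicate 4 had the lowest, 11.11, beside 8.08 for Hp. Against NaCl/HI, where 0.202% of all genes were called, 2 of the 21 were higher, namely Olfm4 (1.63, limma adjusted p = 0.0241) and Lcn2 (1.06, limma adjusted p = 0.046). Against Sham 8 were higher (8.77% of all genes called), among them S100a9 by 1.18 (limma adjusted p = 0.0193) and S100a8 by 1.11 (limma adjusted p = 0.0262), and against LPS 3 were (1.94% of all genes called). By the Wilcoxon test 4 of the 21 were called in LPS/HI against Sham, as were 1998 of all 20301 genes. In LPS against Sham, where 17.8% of all genes were called, 0 of the 21 were higher and 3 were lower, among them the granule protein Ngp (-1.07, limma adjusted p = 0.00261) and the cathelicidin Camp (-0.71, limma adjusted p = 0.0442). The part of neutrophils in the values of Hp was not tested.

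**Figure D4:**
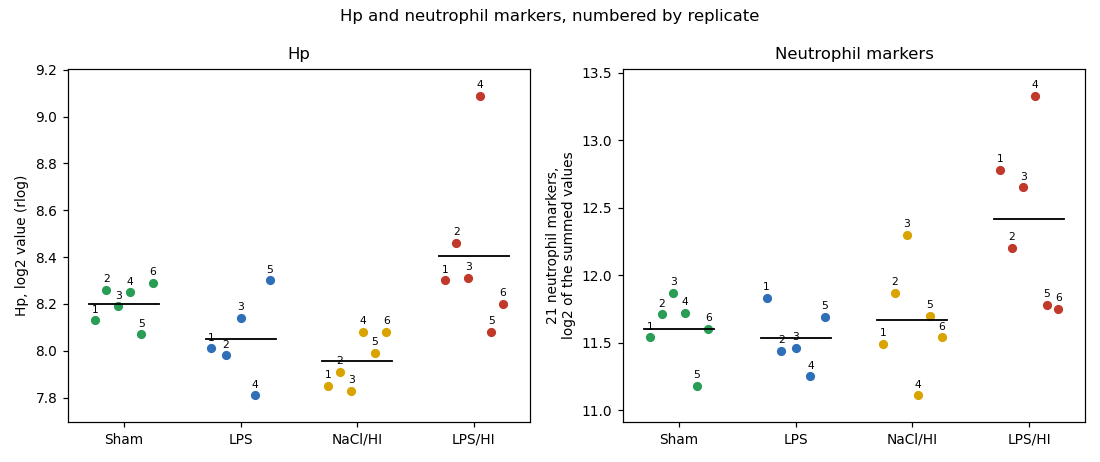
Log2 rlog value of Hp (left) and log2 of the summed values of 21 neutrophil markers (right) in each library, numbered by replicate, with group means (lines). LPS/HI replicate 4 is highest in both panels, at 9.09 and 13.33.

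Ordered by group mean, Plac8 and Csf3r were highest in LPS, Hp and Lyz2 in LPS/HI, and Cd44, Fn1, Anpep and Vcan in NaCl/HI. In the second library series NaCl/HI was the highest for none of these 4, with means of 9.64 for Cd44 (LPS/HI 9.94), 12.90 for Fn1 (Sham 13.13), 7.96 for Anpep (LPS/HI 8.07) and 11.03 for Vcan (LPS 11.29). For Plac8 the order was LPS, LPS/HI, Sham and NaCl/HI, with no overlap between LPS and LPS/HI, while Sham and NaCl/HI overlapped. For Cd44 it was NaCl/HI, LPS/HI, LPS and Sham, and none of these neighbours differed by the test. For Csf3r it was LPS, LPS/HI, NaCl/HI and Sham, again with no called step between neighbours. The order for Lyz2 was LPS/HI, NaCl/HI, LPS and Sham, and for Hp it was LPS/HI, Sham, LPS and NaCl/HI. Fn1 ran NaCl/HI, LPS/HI, Sham and LPS, Anpep NaCl/HI, LPS/HI, Sham and LPS, and Vcan NaCl/HI, LPS/HI, LPS and Sham. Neighbours in these orders were not called for any of these 5 genes.

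Likeness of pattern was measured by Pearson's r over the 23 samples, which share groups and libraries, and is given as a description. The genes most like Plac8 were Gbp4 (r = 0.951), Ifi47 (0.937), Tfec (0.931), Gbp7 (0.928) and Sp110 (0.924), while the nearest member was Csf3r (0.547). Fn1 was most like Lrrk2 (0.961) and Igf2r (0.943) and, among members, Anpep (0.922). Anpep was most like Igf2r (0.971) and the monocyte surface antigen Ly6c (0.965). Cd44 was most like Hk3 (0.958) and Anxa2 (0.949), and its nearest member was Anpep (0.85). Lyz2 was most like LOC103690289 (0.886) and Slpi (0.875), with Cd44 (0.833) as the nearest member. Hp was most like Ifitm6 (0.894) and Tgm1 (0.864), and its nearest member, Vcan, reached 0.0846. For Csf3r the nearest were Slc7a10 (0.838) and Usp4 (0.837), and for Vcan they were Cyfip2 (0.82) and Pla2g7 (0.808).

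The wider monocyte program was read from a list of 37 other classical monocyte genes, of which 34 were measured. In LPS/HI 13 were higher than in Sham and 0 lower, where 8.77% of all genes were called, with a median difference of 0.43 against 0.00 over all genes. Among them were the calcium-binding protein S100a6 (higher by 0.80, limma adjusted p = 0.043), the protease Napsa (0.76, limma adjusted p = 0.0108) and the LPS co-receptor Cd14 (0.58, limma adjusted p = 0.0184). By the Wilcoxon test 15 of the 34 were called there. In the same comparison 8 of 21 neutrophil and 5 of 10 fibroblast and mural markers were higher too, with 0 lower. So were 8 of 14 acute phase and 8 of 13 interferon-stimulated genes. Homeostatic microglia markers had 0 higher and 2 lower of 13. In NaCl/HI 0 of the 34 were called against Sham although 30 had a positive difference, with a median of 0.31 against -0.01 over all genes. In LPS/HI against NaCl/HI 0 were called too (median 0.08). At an unadjusted limma p under 0.05 there were 18 and 7 genes in these comparisons, against 14.8% and 10.6% of all genes, and the Wilcoxon test called 0 in both, as it did over the whole table. Against LPS, with 1.94% of all genes called, 2 of the 34 were higher in LPS/HI, the formyl peptide receptor Fpr2 (0.53, limma adjusted p = 0.0488) and Ifitm3 (0.49, limma adjusted p = 0.0458).

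In LPS against Sham 5 of the 34 were higher and 2 lower, with a median of 0.12, where 17.8% of all genes were called, so the list's share is near the background. Higher were the integrin subunit Itgal (0.55, limma adjusted p = 1.1e-05), Lsp1 (0.54, limma adjusted p = 0.00128), Cd14 (0.48, limma adjusted p = 0.0332), coagulation factor F10 (0.47, limma adjusted p = 0.000277) and vimentin, Vim (0.31, limma adjusted p = 0.0233). Lower were Cd93 (-0.25, limma adjusted p = 0.0431) and Fpr1 (-0.29, limma adjusted p = 0.0417). Vim, Cd93 and Fpr1 fell outside the naming rule and are named to complete the count. Against NaCl/HI 3 of the 34 were called, where 8.98% of all genes were, which is again near the background. LPS had Itgal higher (0.27, limma adjusted p = 0.0142) and Lgals3, a galectin of macrophages (-0.89, limma adjusted p = 0.0467), and Tgfbi (-0.68, limma adjusted p = 0.03) lower. Itgal was also the 1 of 34 called for the interaction, at -0.53 (limma adjusted p = 0.0157), where 1.08% of all genes were called.

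Of the defining genes of classical monocytes, Ccr2, Ly6c and S100a4 were not called in any of the 6 pairs of groups. Ccr2, the chemokine receptor, averaged 7.46 ± 0.15 (SD, n = 6) in Sham, 7.28 ± 0.19 (SD, n = 5) in LPS, 7.70 ± 0.34 (SD, n = 6) in NaCl/HI and 7.49 ± 0.47 (SD, n = 6) in LPS/HI. Its limma adjusted p lay between 0.181 and 0.931 over these pairs. Ly6c differed from Sham by 0.59 in NaCl/HI (limma adjusted p = 0.323), 0.25 in LPS/HI (limma adjusted p = 0.594) and 0.03 in LPS (limma adjusted p = 0.965). S100a4 stood 0.41 above Sham in LPS (limma adjusted p = 0.065), 0.43 in NaCl/HI (limma adjusted p = 0.204) and 0.46 in LPS/HI (limma adjusted p = 0.0527).

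Of 12 nonclassical monocyte genes 11 were measured. In LPS 3 were higher than in Sham and 0 lower, where 17.8% of all genes were called, namely Adgre4 (0.42, limma adjusted p = 0.0194), the Fc receptor Fcgr3a (0.37, limma adjusted p = 0.012) and the sialoglycoprotein Spn (0.28, limma adjusted p = 0.0479). In LPS/HI 4 were higher than in Sham, where 8.77% of all genes were called, the integrin Itgax (0.85, limma adjusted p = 0.0127) and the same 3, Adgre4 (0.64), Spn (0.44) and Fcgr3a (0.37). By the Wilcoxon test 1 of the 11 was called in LPS and 4 in LPS/HI, each against Sham. In NaCl/HI against Sham and in LPS/HI against NaCl/HI limma and the Wilcoxon test called 0 of the 11, with 5 and 3 at an unadjusted limma p under 0.05 (14.8% and 10.6% of all genes). Nr4a1, the nuclear receptor that nonclassical monocytes need, differed from Sham by 0.17 in LPS (limma adjusted p = 0.198) and by -0.05 in LPS/HI (limma adjusted p = 0.743).

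**Figure D5:**
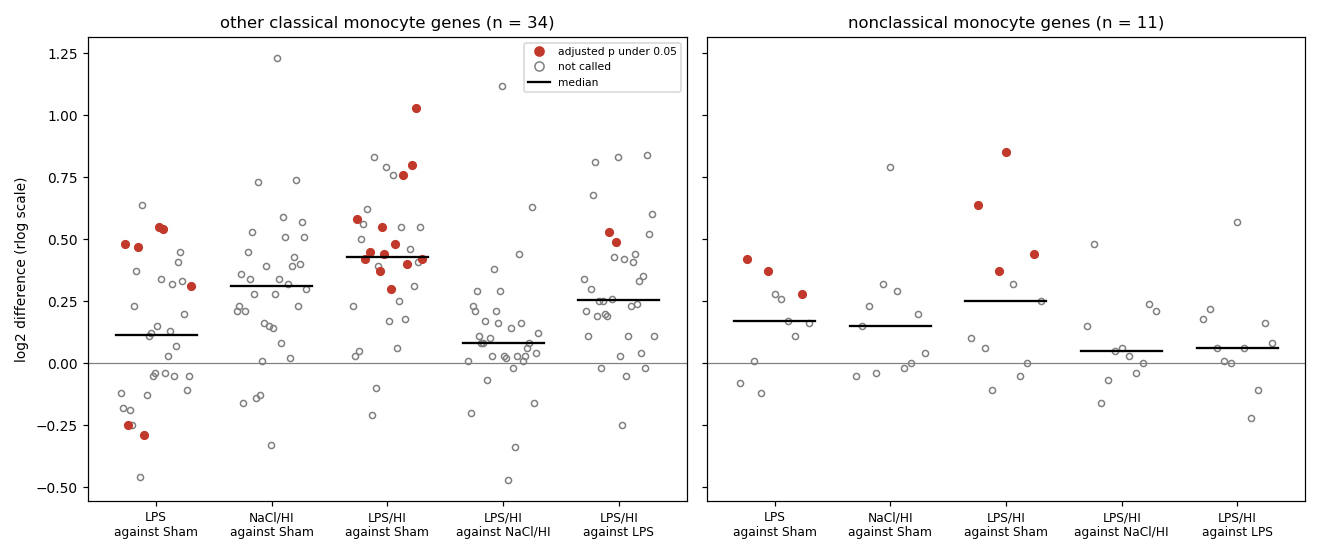
Log2 difference of each of 34 other classical (left) and 11 nonclassical (right) monocyte genes in 5 comparisons. Red points passed limma's adjusted p of 0.05, and lines mark the median. In LPS/HI against Sham 13 classical genes passed, with a median of 0.43.

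Markers of the other cells that the beads or the tissue could bring were read in the same way, and limma called 0 of any of these lists in NaCl/HI against Sham, where it called 0.00985% of all genes. Between 0 and 8 per list had an unadjusted limma p under 0.05, against 14.8% of all genes, and the Wilcoxon test called 0 of all genes there. In LPS against Sham, with its 17.8% of all genes called, homeostatic microglia markers had 0 higher and 6 lower of 13, and border-associated macrophage markers 1 higher and 4 lower of 11, among them Lyve1 (-0.83) and the mannose receptor Mrc1 (-0.50). Endothelial markers had 1 higher and 4 lower of 9, astrocyte markers 2 higher of 7, oligodendrocyte lineage markers 1 higher of 11, and fibroblast and mural as well as T and NK cell markers 0 called of 10 and of 6 (1 and 2 at an unadjusted limma p under 0.05, against 32.0% of all genes, and 0 by Wilcoxon). The Wilcoxon test called 5 homeostatic microglia, 3 border-associated macrophage and 2 endothelial markers in LPS against Sham. It called 1 astrocyte and 1 oligodendrocyte lineage marker there. In LPS/HI against Sham, with its 8.77%, fibroblast and mural markers had 5 higher of 10, with summed levels of 13.61 to 13.73 in LPS/HI and 13.35 to 13.58 in Sham, beside the higher Cd44. Of 14 acute phase and STAT3 target genes 4 were higher and 1 lower in LPS than in Sham, led by complement C3 (1.52, limma adjusted p = 4.17e-06), and 8 were higher in LPS/HI. Of 13 interferon-stimulated genes 3 were higher and 1 lower in LPS, among them Gbp2 (0.63, limma adjusted p = 4.82e-05) beside the higher Plac8, and 8 were higher in LPS/HI. By the Wilcoxon test 1 of the 13 was called in LPS and 8 in LPS/HI, each against Sham. In NaCl/HI against Sham, where Plac8 differed by -0.09, 0 of the 13 were called. There 12 had a positive difference, with a median of 0.29 (0.28 in LPS against Sham). An unadjusted limma p under 0.05 was reached by 8 of the 13, against 14.8% of all genes. What part these cells and programs had in the values of the members and of the monocyte lists was not tested.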

How the data were processed

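RNA sequencing of CD11b/c-isolated cells from 23 samples was used, grouped by sample titles. The authors quantified reads with kallisto 0.48.0 on mRatBN7.2 transcripts, summed them per gene with tximport, applied DESeq2's rlog and took out 3 surrogate variables by sva and limma. The deposited values are log2 values for 20301 genes and range from -1.35 to 23.4. Counts and depth are unknown. The authors had left out genes with few counts before deposit, and no further filter was applied here. All values come from 1 table. Samples are given as separate animals or pools.

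Group pairs and the interaction were tested in 1 limma 3.58.1 fit (R 4.3.3) of all samples with a variance trend and 16 residual degrees of freedom in place of 19, because 3 variables had been removed, with Benjamini-Hochberg adjustment over all genes. Exact two-sided Wilcoxon rank-sum tests used scipy 1.17.1. The fit was tested on simulated data. A list's summed level is the log2 of its summed linear values. After the group means were subtracted, 9 of 33 pairs of samples with the same replicate number correlated above 0.1 (median -0.0304). The 3 removed variables may have held variation that such samples shared, so this cannot show whether the numbers pair samples. The main fit did not use them as pairs. The gene table used here matched 18625 symbols and is of another build (GRCr8), so gene positions are not given. Promoter windows are RefSeq's.

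The members and lists were chosen with earlier results of these data known. Besides the members, 12 hand-written lists were read, namely the monocyte, neutrophil, microglia, border-associated macrophage, oligodendrocyte lineage, astrocyte, endothelial, fibroblast and mural, T and NK cell, acute phase and interferon lists. Named were the members, defining monocyte genes and, per list, the called genes with the largest differences; some single genes under this rule are not reported here. Alternatives covered the degrees of freedom, variance trend, robust variances, groups fitted, replicate and series terms, filter, scaling, weights, fold threshold, test and each library left out.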

Additional observations from a re-analysis of the deposited data

Results flagged for a closer look

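In 5 of the 32 combinations of member and group, the highest or lowest library lay far from its neighbour by Dixon's criterion at its 95% level, which chance alone passes in about 1 of 20 groups.

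Plac8 in Sham replicate 1 was 10.81, with the next library at 10.40. This library is the only Sham library that overlapped with LPS/HI. Vcan in LPS replicate 5 was 11.77, with the next at 11.07. Lyz2 in Sham replicate 5 was 13.09, below the next at 13.44, and in NaCl/HI replicate 3 it was 14.45, above the next at 13.73. Hp in LPS/HI replicate 4 was 9.09, with the next at 8.46, in the library that also had the highest summed neutrophil markers of all 23, 13.33.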

How the results depend on the processing

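Of 1883 alternative values for the members, 1795 kept direction and side of the threshold (direction alone where Plac8 was not tested), 25 lost a call, 22 gained one and 41 turned direction; unless stated, the cause was not tested. With a replicate block the number of members called, with Plac8 counted in LPS/HI against NaCl/HI alone, was 1, 0, 0, 0, 1, 1 and 0 in LPS against Sham, LPS/HI against NaCl/HI, NaCl/HI against Sham, LPS/HI against LPS, LPS against NaCl/HI, LPS/HI against Sham and the interaction, as without it, and 9 of 33 pairs with the same number correlated above 0.1.

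A fold threshold of 2 added to the adjusted p left 0 members called in LPS against Sham, LPS against NaCl/HI and LPS/HI against Sham. With 19 residual degrees of freedom 2 were called in LPS/HI against NaCl/HI (Plac8 and Hp) and 1 in the interaction. Array weights, whose estimation stopped before it converged, gave 5 in LPS/HI against NaCl/HI, 1 in NaCl/HI against Sham and 2 in each of the other comparisons but LPS against Sham. For LPS against NaCl/HI the count was 0 by the exact Wilcoxon test, which called 0 of all genes there, and 0 with robust variances or in a fit of these groups alone, and 3 with the library series as a term. LPS/HI against Sham had 0 without a variance trend, with robust variances and with quantile normalization, and 2 in a fit of these groups alone.

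With 1 library left out the counts ranged from 0 to 1 in LPS against Sham, LPS/HI against NaCl/HI and NaCl/HI against Sham and from 0 to 2 in LPS against NaCl/HI and LPS/HI against Sham.

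Array weights turned the direction of Lyz2 (-0.09) and Csf3r (-0.02) in LPS/HI against NaCl/HI, Anpep in LPS/HI against LPS (-0.04), Fn1 (-0.12) and Anpep (-0.07) in LPS/HI against Sham and Lyz2 in the interaction (-0.13). The interaction of Fn1 was 0.02 with the series term and 0.01 with quantile normalization. With 1 library left out, small differences crossed 0. In LPS against Sham these were Vcan (-0.04 to 0.22), Lyz2 (-0.01 to 0.10) and Anpep (-0.15 to 0.06). In LPS/HI against NaCl/HI they were Vcan (-0.22 to 0.03), Cd44 (-0.36 to 0.02) and Csf3r (-0.03 to 0.05), and in LPS/HI against Sham it was Fn1 (-0.02 to 0.11). In the interaction they were Fn1 (-0.15 to 0.16) and Lyz2 (-0.05 to 0.18). Depth is unknown, so counting error could not be weighed.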
